A study of Mus musculus with 12 samples.

Results

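The immediate early transcription factors examined here are 10 genes fixed by name: Fos, Fosb, Jun, Junb and Jund of the AP-1 family, Atf3, Ier2, the zinc finger factors Klf6 and Klf2, and Myc. They were followed through 12 mRNA libraries of RAW264.7, a macrophage line of the mouse, among 35944 genes matched. Of the 10, 9 passed the filter on low counts (at least 10 counts in at least 3 libraries), as did 13923 genes in all. Myc did not pass. In GRCm38, Fos lies at chr12:85473890-85477273 and Myc at chr15:61985391-61990374 on the plus strand, and Fosb at chr7:19302696-19310051 and Jun at chr4:95049034-95052222 on the minus strand. Klf2 (chr8:72319033-72321656, plus strand) shares chromosome 8 with Jund, Ier2 and Junb, Atf3 lies on chromosome 1 and Klf6 on chromosome 13.

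Cells in all 4 groups had been grown in DMEM with serum depleted of extracellular vesicles (EVs). They were then treated for 48 h with 3 µg per ml (as EV protein) of EVs released by MS-1, an endothelial line of the mouse. Electroporation had loaded these EVs with 1 of 4 mimics. The control mimic, which the study's methods name as the worm miRNA cel-miR-67, gave ctrl-EVs, while the others gave miR-142-5p-EVs, then miR-183-5p-EVs, then miR-222-3p-EVs, and values of single libraries are listed in this order of treatments. Each group had 3 libraries, numbered 1 to 3 in the titles, so each number holds 1 library of every group. What a number stands for is not stated, nor whether the libraries came from separate cultures, so every p-value measures only the spread between these libraries, which may be technical. Untreated cells and times before 48 h are not among these libraries, and all libraries come from 1 cell line.

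Immediate early genes are those that a cell transcribes within minutes of a stimulus, from regulators already present and without new protein synthesis. Their mRNAs are mostly short-lived, since AU-rich elements in the 3′ UTR recruit decay factors, so their level reports the signals of the recent past. Serum, growth factors, stress and handling can all induce such genes, many of them through SRF, its ternary complex partners and CREB. Fos proteins bind DNA only as dimers with a partner such as a Jun protein, while Jun proteins can also pair with each other, and the resulting AP-1 complexes drive genes of growth and inflammation.

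The mature miRNAs after which the 3 mimics are named are shown for their seeds, which the matches below rest on. They are the RefSeq sequences (GRCm38.p6), with the seed, bases 2 to 8, in capitals, and not those of the synthetic mimics, which can differ at the ends. No seed is shared between them.
mmu-miR-142a-5p: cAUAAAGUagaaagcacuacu
mmu-miR-183-5p: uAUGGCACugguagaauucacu
mmu-miR-222-3p: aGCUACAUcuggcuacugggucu

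Among the 10 members, Fos was the only gene whose 3′ UTR, in its most abundant transcript, held a 7-base match to any of these seeds. The transcript Fos-201 (3′ UTR of 815 bases) held 1 match to miR-142a-5p at bases 494 to 500 of the 3′ UTR and 1 match to miR-222-3p at bases 203 to 209. Of 13092 tested genes with a 3′ UTR, 13.7% held a miR-142a-5p match, 9.0% a miR-183-5p match and 9.2% a miR-222-3p match. The matches are in capitals below, with flanking bases, and a match is a description rather than a site shown to act.
Fos, miR-142a-5p match: gaaaagataggACTTTATtttccagtaga
Fos, miR-222-3p match: ctcttccagagATGTAGCaaaaacaaaac
The AU-rich pentamer ATTTA was present in the 3′ UTR of all members except Ier2. Klf6 held 7 copies, Fos and Jun 4 each, Atf3 3, Junb 2, and Fosb, Jund, Klf2 and Myc 1 each. It was present in 63.9% of the tested genes.

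The promoters of Fos and Fosb are shown because these closely related genes differed most clearly in direction across the libraries. Each run covers 250 bases before to 50 bases after the RefSeq start (GRCm38.p6), on the strand of the gene, and capitals mark the CRE core TGACG, the GC box GGGCGG and the TATA box TATAAA on either strand.
Fos, chr12:85473640-85473939, plus strand: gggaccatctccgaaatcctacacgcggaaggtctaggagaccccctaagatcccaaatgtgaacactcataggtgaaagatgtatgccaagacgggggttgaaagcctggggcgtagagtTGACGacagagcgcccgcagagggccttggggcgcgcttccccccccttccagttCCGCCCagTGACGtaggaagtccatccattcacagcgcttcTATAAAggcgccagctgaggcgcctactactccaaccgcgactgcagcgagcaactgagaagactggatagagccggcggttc
Fosb, chr7:19309996-19310295, minus strand: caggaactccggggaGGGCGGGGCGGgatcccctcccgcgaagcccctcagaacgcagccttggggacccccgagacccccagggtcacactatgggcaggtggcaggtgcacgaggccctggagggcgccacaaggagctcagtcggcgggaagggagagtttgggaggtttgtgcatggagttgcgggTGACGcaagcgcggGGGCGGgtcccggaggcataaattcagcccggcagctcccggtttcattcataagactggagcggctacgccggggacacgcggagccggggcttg
The CRE core, the 5-base part of the cAMP response element searched here, began 66 bases before the start in Fos and 60 bases before it in Fosb. Fos held a second copy at 129 bases and a TATA box at 33 bases before the start. Promoters were matched for 8 of the 10 members. The window of Jund, which held no match to any motif searched, lies upstream of its GENCODE start. The CRE core was present in 5 of the 8 (Fos, Fosb, Junb, Atf3 and Klf2) and in 20.8% of 32851 promoters of the same length, and the GC box in 6 of the 8 and 35.7%. The full CRE (the core followed by TCA), the AP-1 site (TGANTCA), the ETS core (CCGGAA) and the CArG box bound by SRF were in 0 of the 8 windows, against 1.79%, 7.81%, 14.9% and 1.63% of all promoters. An absent match says only that these letters are not in the window.

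Total estimated counts were 16294611 to 22974853 per library, and the libraries of number 2 were the shallowest of each group. Number 2 also had more mitochondrial counts (4.88% to 5.41%, against 3.48% to 4.62% in the other 8 libraries) and lower summed TPM of the 10 macrophage markers (860 to 902, against 1079 to 1207). The summed TPM of the 11 endothelial markers, listed for the cell type of the EV source, was 17.8 to 20.3 in number 2 and 29.6 to 37.5 in the others. Of these markers 6 passed the count filter, and Egfl7 alone held 10.1 to 26.2 TPM. Cldn5 was at 0 in every library, and Kdr and Emcn reached at most 0.063 and 0.022 TPM. Whether any of this RNA came from the EVs was not tested. Of the macrophage markers 9 of 10 passed the count filter, Mertk being the exception, and the summed fibroblast and lymphoid markers stayed at or below 1.01 and 1.99 TPM. Where members differ by number below, these values move with them and their part was not tested.

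On the TPM scale, which is per transcript length, Atf3, a stress-induced repressor, was the most abundant member. Its level in the 12 libraries was 49.7 TPM at the lowest, 63.4 at the median and 107.5 at the highest, above every other member in every library. Junb followed at a median of 32.8 TPM (21.8 to 42.4). Ier2, a short nuclear regulator, had a median of 22.0 TPM (16.3 to 32.2), Jun 21.8 TPM (13.3 to 34.8), Klf6 20.6 TPM (14.1 to 35.6) and Fos 17.7 TPM (6.39 to 24.6), and these ranges overlapped. Jund, the Jun gene usually expressed in resting cells, was lower at 8.06 TPM (5.28 to 10.6). Klf2, a factor known for restraining inflammatory macrophage activation, had 2.38 TPM (1.04 to 9.25) and Fosb 0.925 TPM (0.307 to 4.31).

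Myc was at the floor. Of its 8 annotated transcripts, 1 estimated count was assigned in ctrl-EVs 1, 1 in ctrl-EVs 3 and 0 in the other 10 libraries. A level of 3 counts, the smallest taken as detectable, corresponds to 0.131 to 0.184 CPM at these depths, so Myc was not detectable at this depth in any library. Its relative Mycn, which encodes a factor that also dimerises with MAX, was at 317 to 377 TPM in all 12 libraries, while Mycl was at 0.332 TPM or less. Mycn and Mycl were singled out after their values were seen. MAX itself, the obligate partner, was measured at 102 to 259 TPM.

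**Figure D1:**
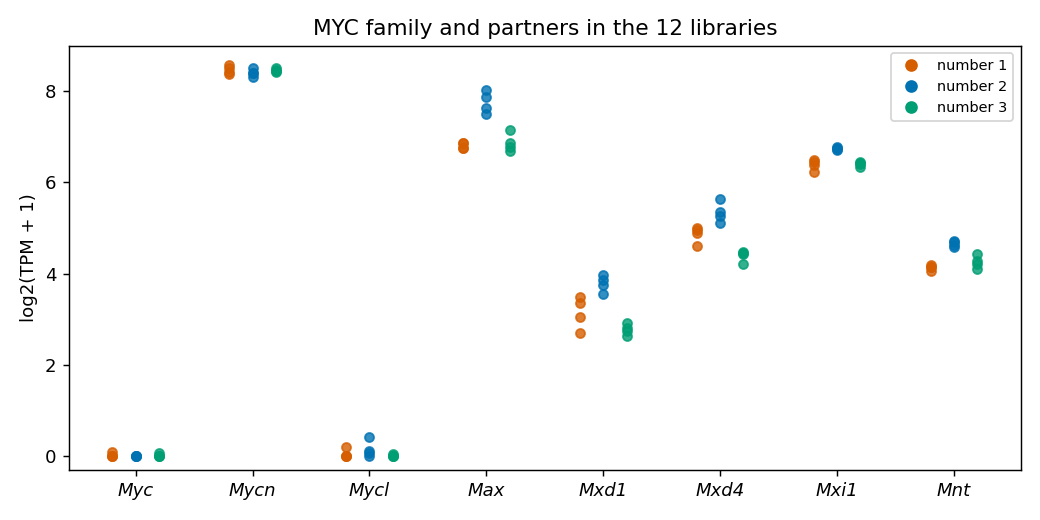
Level of Myc, its relatives and their partners in the 12 libraries, as log2(TPM + 1) on the vertical axis, with points coloured by title number. Myc sits at the floor in every library, while Mycn lies between 317 and 377 TPM.

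To ask how far the members varied with the title number rather than the mimic, the sum of squares of log2(normalized count + 1) was split for each gene, where normalized counts are estimated counts divided by size factors and a length offset. The number held between 51.1% (Jund) and 91.6% (Fosb) of the variation of a member, with a median of 77.0% over the 9, against 69.5% over all tested genes. The mimic held a median of 6.1% over the members and 8.0% over all genes. In a likelihood ratio test in DESeq2 that kept the mimic as a term, all 9 tested members differed among the numbers. The same test called 9660 of the 13923 genes (69.4%), so a call by itself sets the members little apart. What follows is therefore given by size and direction.

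**Figure D2:**
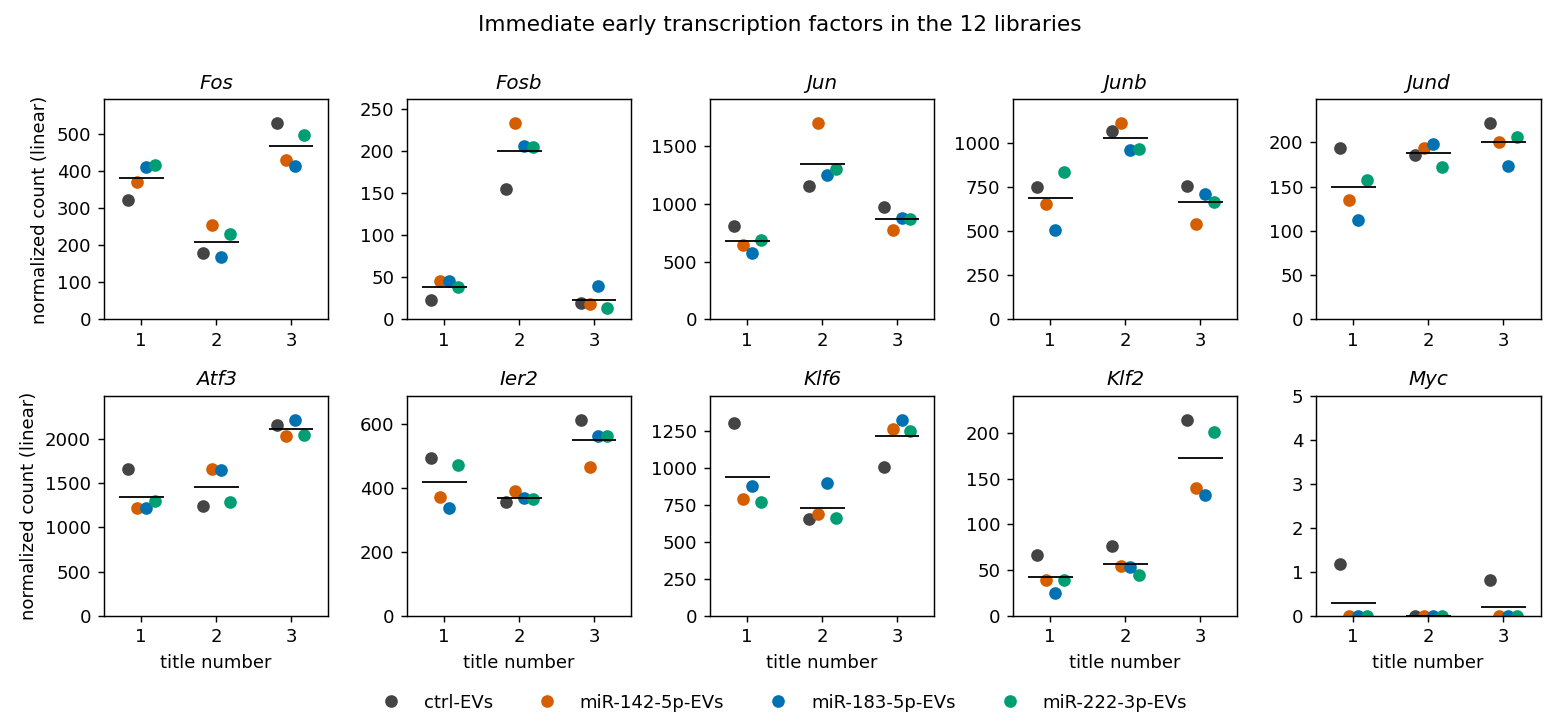
Normalized counts of the 10 members (linear vertical axes from 0) in each library by title number, coloured by treatment, with a line at the mean of the 4 libraries of a number. Fosb, Jun and Junb are highest and Fos is lowest in number 2, Klf2 and Atf3 are highest in number 3, and Myc is at or near 0 throughout.

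Fosb, a Fos relative known in neurons for a long-lived splice form, had the largest difference of the 9 members in number 2. In these bulk libraries, fewer cells with an mRNA and less of it per cell cannot be told apart. Its normalized counts were 155, 233, 206 and 205 in number 2. They were 22.5, 45.3, 45.4 and 38.6 in number 1 and 19.7, 18.5, 39.5 and 13.5 in number 3. The libraries of number 2 thus lay above all others with no overlap. The mean of number 2 (200 ± 33, SD, n = 4) was 5.26 times that of number 1 and 8.76 times that of number 3, and the difference from both was 2.80 ± 0.22 on the log2 scale (± SE, DESeq2 adjusted p = 2.48e-34). Only 1.14% of all tested genes had a larger difference in this comparison. On the log2(TPM + 1) scale, which understates changes of low genes, it was 1.51 (limma adjusted p = 7.90e-07). In number 2 the transcript Fosb-201 took 59.1% to 71.7% of the gene's counts and the retained-intron transcript Fosb-204 23.7% to 34.4%, as Salmon divided them.

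Fos moved the other way. Its normalized counts were 178, 255, 167 and 229 in number 2, 322, 371, 411 and 415 in number 1, and 529, 429, 413 and 496 in number 3. Every library of number 2 lay below every other library, while numbers 1 and 3 overlapped. The difference of number 2 from the others was −1.03 ± 0.14 (DESeq2 adjusted p = 2.24e-13), and number 1 differed from number 3 by −0.30 ± 0.15, which did not pass the test (DESeq2 adjusted p = 0.143).

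The Jun partners rose with Fosb rather than with Fos. Jun had 1151, 1700, 1246 and 1298 normalized counts in number 2, against 804, 640, 573 and 686 in number 1 and 971, 776, 874 and 865 in number 3. Number 2 lay above all other libraries, with a difference of 0.81 ± 0.12 (DESeq2 adjusted p = 2.08e-11). Junb, which often replaces Jun in less active AP-1 dimers, had 1071, 1115, 964 and 967 normalized counts in number 2 and 506 to 837 in the other 8 libraries. Its difference was 0.61 ± 0.12 (DESeq2 adjusted p = 1.22e-06). Junb overlaps Prdx2 on the opposite strand, and since the use of strand in the assignment is not stated, reads of the overlap cannot be told apart. Jund did not pass this test (0.13 ± 0.15, DESeq2 adjusted p = 0.423), and its difference was −0.085 in limma on the log2(TPM + 1) scale.

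The balance of Fos and Jun mRNA thus differed between numbers. In number 3 the levels overlapped, at 22.3 ± 1.9 TPM for Fos and 21.2 ± 1.3 TPM for Jun (SD, n = 4). In number 2 they were 8.26 ± 1.70 and 27.4 ± 5.0 TPM, and the ranges did not overlap (6.39 to 10.2 against 24.3 to 34.8). In number 1 they stood at 17.2 ± 1.9 and 15.6 ± 2.1 TPM and overlapped.

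Number 2 was apart from all other libraries in 4 of the 9 members (Fos, Fosb, Jun and Junb), as it was in 41.3% of all tested genes. In DESeq2, 3 members were higher in number 2 than in numbers 1 and 3 (Fosb, Jun and Junb), where 32.0% of all genes were called higher, and 4 were lower (Fos, Klf6, Ier2 and Klf2), where 32.1% were called lower. The median difference was −0.21 over the 9 members and 0.01 over all tested genes, and the median absolute difference 0.56 and 0.46. Klf6 differed by −0.56 ± 0.14 (DESeq2 adjusted p = 1.57e-04) and Ier2 by −0.37 ± 0.12 (DESeq2 adjusted p = 0.0031). The Ier2 call was lost without ctrl-EVs 2 (−0.28, DESeq2 adjusted p = 0.0548). Atf3 did not pass (−0.21 ± 0.11, DESeq2 adjusted p = 0.0786), but did on the log2(TPM + 1) scale in limma (−0.44, adjusted p = 0.0029) and when any 1 of 4 libraries was left out (numbers 1 and 2 of miR-142-5p-EVs and of miR-183-5p-EVs, DESeq2 adjusted p of 0.018 to 0.0459).

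Klf2 followed number 3. Its normalized counts were 214, 140, 133 and 201 in number 3. They were 66.1, 39.2, 24.6 and 39.4 in number 1 and 76.0, 54.2, 53.1 and 44.8 in number 2. All libraries of number 3 lay above all others, and its mean was 4.07 times that of number 1 and 3.02 times that of number 2. Number 1 differed from number 3 by −2.06 ± 0.23 (DESeq2 adjusted p = 6.17e-17), and 0.776% of all tested genes had a larger difference. The lower value in number 2 than in numbers 1 and 3 together (−0.56 ± 0.21, DESeq2 adjusted p = 0.0136) rests on number 3, since the mean of number 2 (57.0 ± 13.3, SD, n = 4) was above that of number 1 (42.3 ± 17.3). That call was lost without ctrl-EVs 2, miR-222-3p-EVs 2 or miR-222-3p-EVs 3 (DESeq2 adjusted p of 0.0544 to 0.138).

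Atf3 was also highest in number 3. It had 2159, 2028, 2215 and 2040 normalized counts there, against 1655, 1222, 1213 and 1297 in number 1 and 1236, 1660, 1642 and 1290 in number 2. Number 1 differed from number 3 by −0.65 ± 0.12 (DESeq2 adjusted p = 4.60e-06), with no overlap. Its mRNA was mostly Atf3-201 (67.9% to 96.3% of the gene's counts).

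In all, 5 members were called lower in number 1 than in number 3 (Klf2, Atf3, Ier2, Jun and Jund), where 10.5% of all tested genes were called lower, and 1 was called higher (Fosb), where 12.9% were called higher. Numbers 1 and 3 did not overlap in Klf2 and Atf3, 2 of the 9 members, and in 25.2% of all genes. Ier2 differed by −0.41 ± 0.13 (DESeq2 adjusted p = 0.0116), Jun by −0.37 ± 0.14 (0.0299), Jund by −0.44 ± 0.17 (0.0403) and Fosb by 0.77 ± 0.29 (0.0400). Klf2 and Atf3 kept their calls when any 1 library was left out. The Ier2 call was lost without miR-142-5p-EVs 1, miR-183-5p-EVs 1 or miR-183-5p-EVs 3, and the Jun call without these or ctrl-EVs 3, miR-222-3p-EVs 1 or miR-222-3p-EVs 3 (DESeq2 adjusted p up to 0.126 and 0.158). The Fosb call was lost without any of the 3 miR-142-5p-EV libraries, the 3 miR-222-3p-EV libraries or miR-183-5p-EVs 1, and the Jund call in 9 of the 12 fits, all but those without ctrl-EVs 1, ctrl-EVs 2 or miR-183-5p-EVs 2 (DESeq2 adjusted p up to 0.247 and 0.233). The remaining members were Fos, Klf6 (−0.39 ± 0.16, DESeq2 adjusted p = 0.0604) and Junb (0.03 ± 0.14, DESeq2 adjusted p = 0.916). Klf6 passed without any 1 of ctrl-EVs 1, 2 and 3 or of miR-183-5p-EVs 2, and reached −0.64 without ctrl-EVs 1 (DESeq2 adjusted p = 5.91e-08).

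**Figure D3:**
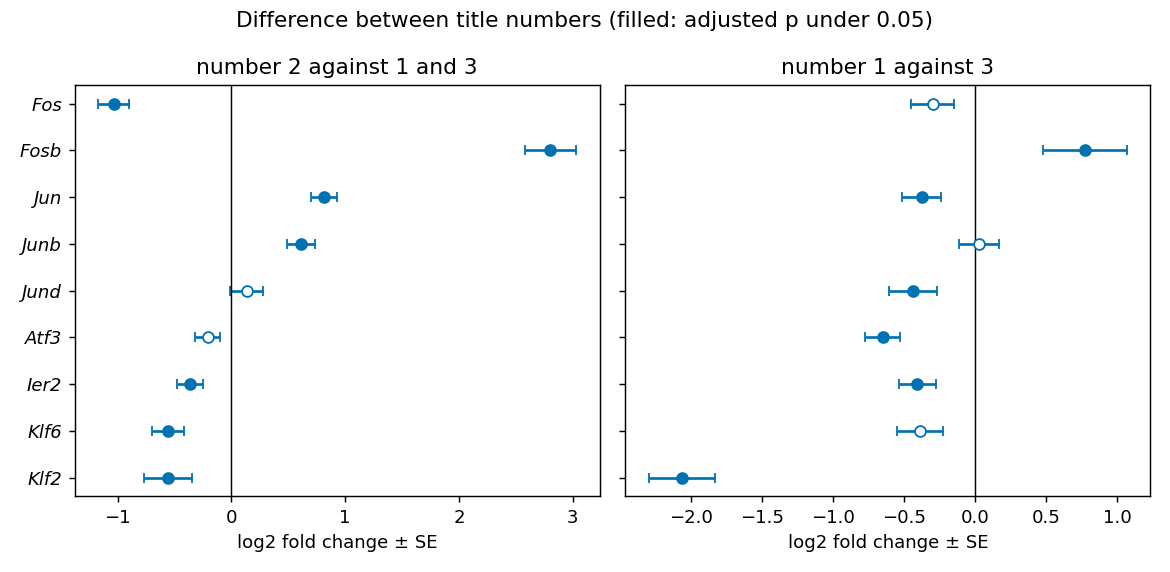
Difference of each tested member between title numbers, as the DESeq2 log2 fold change with its SE on the horizontal axis, with filled points for an adjusted p under 0.05. Fosb (2.80) and Fos (−1.03) lie at opposite ends for number 2, and Klf2 (−2.06) stands furthest from 0 for number 1 against number 3.

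The genes around the members were taken from lists fixed with them. Of 31 other immediate early genes tested, 17 were higher and 6 lower in number 2 than in numbers 1 and 3, with a median difference of 0.40, against 0.01 over all tested genes. Per1, a clock gene that also responds to serum and glucocorticoids, had 6527 ± 1305 normalized counts in number 2, 1150 ± 150 in number 1 and 941 ± 102 in number 3 (SD, n = 4), a difference of 2.64 ± 0.12 (DESeq2 adjusted p = 4.70e-107). Bhlhe40, another clock-linked repressor, differed by 1.19 ± 0.08 (DESeq2 adjusted p = 1.25e-53).

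Among 10 AP-1 partners tested, 5 were higher and 3 lower in number 2 (median 0.01). Batf, which pairs with Jun proteins and lacks an activation domain, fell by 1.35 ± 0.10 on the log2 scale, and Jdp2, a repressor of similar build, by 0.99 ± 0.11. Atf7, a CREB-related partner, rose by 0.82 ± 0.10. Of 24 genes of SRF, its ternary complex factors and the MAP kinases, which lead from a stimulus to Fos, 7 were higher and 6 lower (median −0.05). The 3 with the strongest difference among numbers were Crem, a CREB relative (−1.22 ± 0.13), the kinase gene Mapk9 (0.53 ± 0.07) and the SRF coactivator Mrtfb (−0.70 ± 0.11).

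Of 9 genes for proteins that bind AU-rich elements, 6 were higher in number 2 and the other 3 did not pass the test (median 0.42). Zfp36, whose protein tristetraprolin promotes the decay of AU-rich mRNAs, had 1801 ± 330 normalized counts in number 2, against 811 ± 55 in number 1 and 619 ± 70 in number 3 (SD, n = 4), a difference of 1.34 ± 0.11. Its relative Zfp36l1 differed by 1.35 ± 0.09 and Ybx1, a cold shock domain protein, by 0.76 ± 0.08. Zfp36 and Zfp36l1 also stand among the other immediate early genes. Of the members called in number 2, the lower ones hold 7 (Klf6), 4 (Fos), 1 (Klf2) and 0 (Ier2) copies of the pentamer. The higher ones hold 4 (Jun), 2 (Junb) and 1 (Fosb), and the decay of these mRNAs was not measured.

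Of 11 further KLF genes tested, 5 were higher and 2 lower (median 0.18). Klf10, a TGF-beta-inducible member, differed by 1.30 ± 0.09, Klf11 by 1.34 ± 0.15 and Klf16 by 0.92 ± 0.11, in the direction opposite to Klf6. The list named MYC partners covers a wider network and holds Mycn as well. Of its 11 tested genes, 9 were higher and 1 lower (median 0.57), led by Max (1.15 ± 0.09), Mlxip (0.83 ± 0.07) and the MYC antagonist Mxd4 (0.96 ± 0.09). Mycn, counted among the higher genes, differed by 0.17 (DESeq2 adjusted p = 0.0167). Of 20 MYC-responsive growth genes, 6 were higher and 6 lower (median −0.01). Their leading genes were lower, namely Nop58 (−0.69 ± 0.06) and Bop1 (−1.13 ± 0.10) of ribosome assembly and the cell cycle kinase gene Cdk4 (−0.71 ± 0.07).

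Of 20 proliferation genes, 13 were lower and 3 higher in number 2 (median −0.56), and 13 were higher and 0 lower in number 1 than in number 3 (median 0.33). Tyms, which encodes thymidylate synthase, had 162 ± 20 normalized counts in number 2, against 878 ± 111 in number 1 and 540 ± 50 in number 3 (SD, n = 4). Rrm2 and Pcna of DNA synthesis differed by −1.16 ± 0.09 and −0.80 ± 0.07. Of 12 heat shock and handling genes, 9 were higher and 1 lower in number 2 (median 0.58). The chaperone gene Hsph1 differed by 2.06 ± 0.11 and the stress gene Ddit4 by 1.41 ± 0.13. Hmox1, of heme breakdown, was highest in number 1 (6173 ± 1603 normalized counts) and lower in numbers 2 (2928 ± 199) and 3 (1530 ± 181).

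Of 10 fast NF-kappaB response genes, which share stimuli with the members, 4 were higher and 6 lower in number 2 (median −0.39). The chemokine gene Cxcl2 had 150.9 ± 65 normalized counts in number 2, 766 ± 90 in number 1 and 1182 ± 110 in number 3 (SD, n = 4), an order like that of Fos. Ptgs2, for the prostaglandin synthase COX-2, fell by 1.07 ± 0.11 and Nfkbiz rose by 0.61 ± 0.11 on the log2 scale. Each of these named genes had a DESeq2 adjusted p under the threshold for any difference among numbers, which 69.4% of all genes had.

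**Figure D4:**
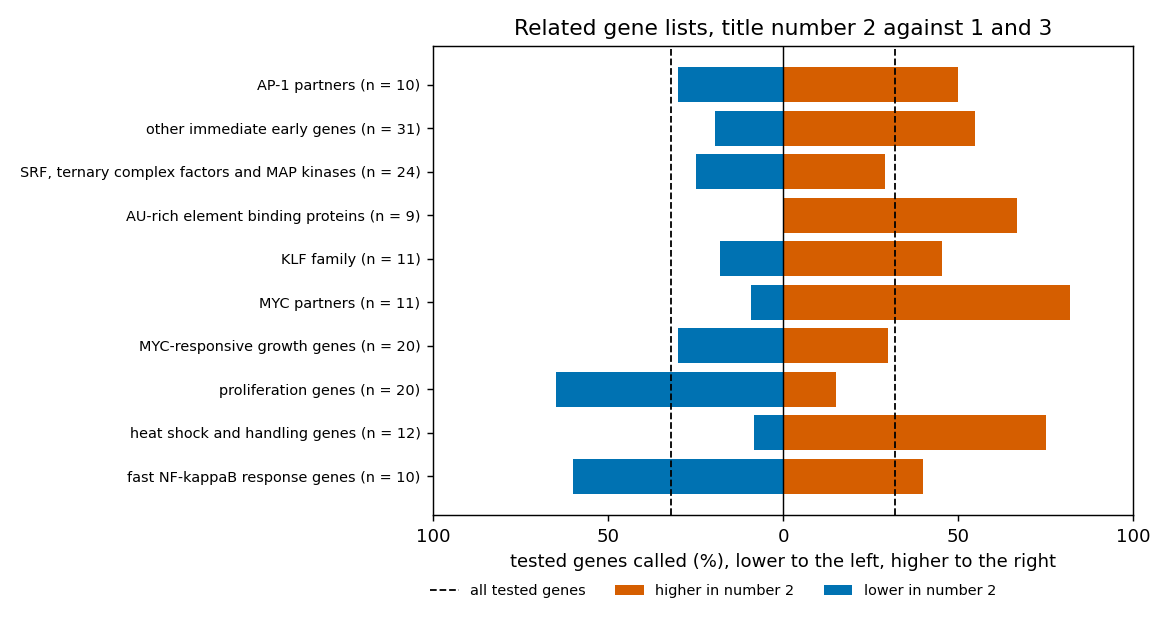
Share of the tested genes of each list called lower (left, blue) or higher (right, orange) in title number 2 than in numbers 1 and 3, in percent, with dashed lines at the shares over all tested genes (32.1% lower and 32.0% higher). Most lists lean to the right, and the proliferation and NF-kappaB lists lean to the left.

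By root mean square difference of centred log2(normalized count + 1) over the 12 libraries, among 10868 genes with a mean of at least 50, the patterns most like the members were the following. For Fos they were Phyh (0.15), Ctse (0.16) and Wars (0.16), and for Fosb Eno2 (0.36), Efna1 (0.37) and Mcf2l (0.37). Jun was nearest to Rnasek (0.15), Nop10 (0.15) and Ing4 (0.15), and Junb to Mettl27 (0.11), Mtln (0.14) and Mt1 (0.14). Jund was nearest to Zfp597, Terf1 and S100a1 (0.11 to 0.12) and Atf3 to Rell1, Mfsd11 and Asf1a (0.10 to 0.12). Ier2 was nearest to Icam1, Dok3 and Arfrp1 (0.098 to 0.11), Klf6 to Rnf144b, Reep3 and Rragc (0.13 to 0.15), and Klf2 to Matk, Slc6a8 and Rhod (0.33 to 0.37). No member was among the nearest genes of another.

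To ask whether the loaded miRNAs changed the members, each miR-EV group and all 9 miR-EV libraries were compared with the 3 ctrl-EV libraries, which all these comparisons share. Counts follow the order of treatments given above, with all miR-EVs last. No member was called in any of the 4 comparisons in DESeq2, and 0 had an unadjusted p under 0.05. Over all genes 1 was called for miR-142-5p-EVs (0.00718%) and 0 in each of the others (0%). Before adjustment, 73, 138, 100 and 142 genes had a p under 0.05. edgeR and limma called 0 genes in each. With the title number as a block, 8, 58, 5 and 84 genes were called (0.0575%, 0.417%, 0.0359% and 0.603%) and again 0 members. At an unadjusted p under 0.05 this fit left Klf2 alone among the members in the first comparison and 0 members in the third. It left Klf2 and Fosb in the second, where neither had a DESeq2 adjusted p, and in that of all miR-EVs. Of the 13923 tested genes, 816, 1407, 910 and 1480 had such an unadjusted p in this fit.

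Klf2 was lower in each of the 9 miR-EV libraries than in the control of its number, with log2 differences from −1.39 (miR-183-5p-EVs 1) to −0.091 (miR-222-3p-EVs 3) and a median of −0.69. The 9 differences rest on 3 shared control libraries. How often all tested genes show so one-sided a set of pairs was not counted, here or for the members below. Without the block the fitted difference of all miR-EVs was −0.56 ± 0.65 (DESeq2 adjusted p = 1), and with it −0.65 ± 0.21 (95% interval −1.07 to −0.23, DESeq2 adjusted p = 0.121). Without ctrl-EVs 3, which leaves the controls without number 3, the difference in the fit without the block was 0.18. For miR-183-5p-EVs it was −0.76 ± 0.79 without the block and −0.85 ± 0.27 with it, where DESeq2 gave no adjusted p.

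Fosb was higher than its control in 7 of the 9 pairs, between −0.52 and 0.98. Its fitted difference for all miR-EVs was 0.51 ± 0.90 without the block and 0.53 ± 0.27 with it (DESeq2 adjusted p = 0.393). Leaving out miR-142-5p-EVs 2 or miR-222-3p-EVs 2 turned the first of these to −0.031 and −0.061. Without the block, either step leaves number 2, where Fosb was highest, unequally shared between the groups.

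Fos, the member with a seed match, was not lower in the groups whose miRNA matches it. Its mean was 343 ± 176 normalized counts in ctrl-EVs, 352 ± 88 in miR-142-5p-EVs and 380 ± 137 in miR-222-3p-EVs (SD, n = 3), against 331 ± 141 in miR-183-5p-EVs, for which its 3′ UTR holds no match. Against the control of its number, it was 0.20 and 0.52 higher in numbers 1 and 2 of miR-142-5p-EVs and differed by −0.30 in number 3. The corresponding differences for miR-222-3p-EVs were 0.36, 0.36 and −0.093. With the block the fitted differences were 0.12 (95% interval −0.23 to 0.46) and 0.19 (−0.16 to 0.54), so a fall beyond the lower bounds is outside these intervals while a smaller one is not. Without the block they were 0.04 ± 0.47 and 0.15 ± 0.47. The first turned negative without ctrl-EVs 1 or 2 or miR-142-5p-EVs 1 or 3, and the second without ctrl-EVs 2 or miR-222-3p-EVs 3, with DESeq2 adjusted p of 0.998 or above. As these fits held no block, each such step left the title numbers unequally shared between the groups.

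Of the other 6 members, 5 were lower than their control in most pairs, and none was called. Junb and Jund were lower than their control in 7 of 9 pairs each, Jun and Ier2 in 6, Atf3 in 5 and Klf6 in 3. With the block, their fitted differences in the single miR-EV groups lay between −0.35 (Jund, miR-183-5p-EVs) and 0.063 (Klf6, miR-183-5p-EVs), and the latter was the only one above 0. Without the block, the median fitted difference over the 9 members was −0.11, −0.12 and −0.063 in the 3 single miR-EV groups, in order. Over all tested genes it was 0.01 in each. With the block, the medians over the members were −0.14, −0.18 and −0.087, against 0.00091, −0.0081 and −0.00089 over all tested genes. Of the 153 tested genes in the 10 related lists, 0 were called in any of the 4 comparisons.

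**Figure D5:**
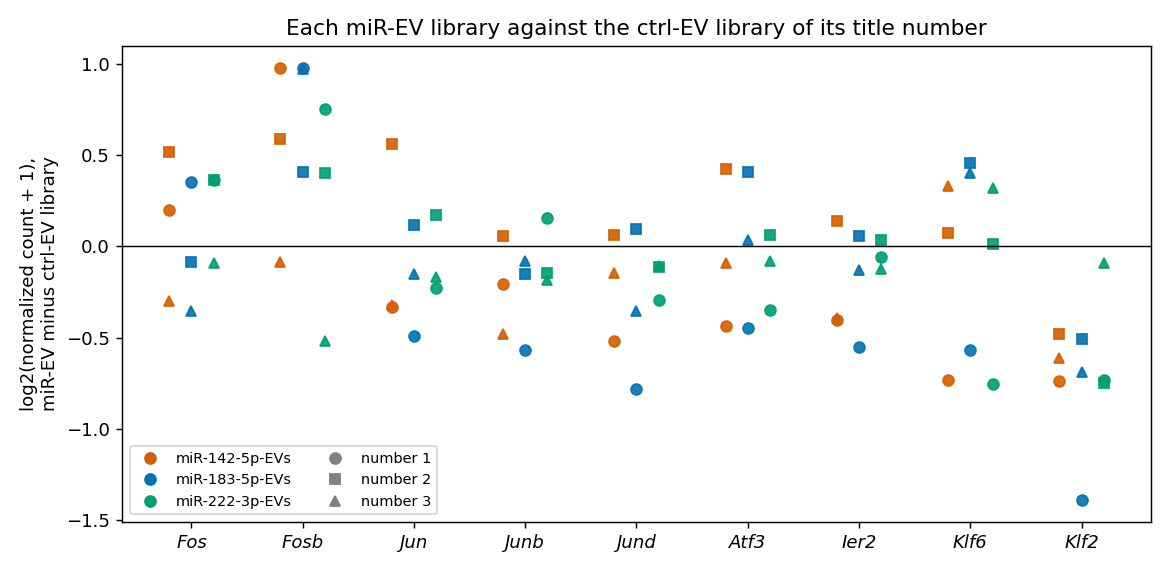
Each miR-EV library against the ctrl-EV library that carries its title number, as the difference in log2(normalized count + 1) on the vertical axis, with colour for the mimic and shape for the number. All 9 points of Klf2 lie below 0 and 7 of 9 points of Fosb above it, while the other members lie on both sides. The share of all tested genes with such one-sided points was not counted.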

How the data were processed

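PolyA RNA of RAW264.7 cells was sequenced by the authors from stranded libraries as read pairs and assigned to mouse transcripts with Salmon. The deposited files hold an estimated count per transcript, not normalized between libraries and not always whole, and the authors' TPM value, scaled by Salmon to the same sum in each library. The transcript release, filters and use of strand are not given consistently in the sources used here. Transcripts were matched by identifier to GENCODE vM21 (GRCm38; 116710 of 118783, 98.3%), with 0.570% to 0.642% of counts unmatched, and the counts of a gene's transcripts were added up and rounded. Those reaching 10 counts in 3 or more libraries were fitted in R 4.3.3 with DESeq2 1.42.0, with the mean transcript length as an offset. Treatments were compared in 1 model of the 4 groups, as the study's methods use DESeq2, and title numbers in a model that also held the treatment. A call needed a two-sided p under 0.05 after Benjamini-Hochberg adjustment. Libraries of the same title number deviated from their group means together (correlation 0.409 to 0.797 over 18 pairs, across genes), so the number was also used as a block. Libraries of a group differed by far more than counting error (chi-square over degrees of freedom, 29.4 to 192). Alternatives used edgeR 4.0.16, limma 3.58.1 on log2(TPM + 1), other filters, no length offset, GC and length corrections, and each library left out in turn. The fits were tested on simulated counts, which held only planted changes and, unlike these libraries, no broad difference between title numbers.

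The members, lists and tests were chosen with earlier results of these data known. Named genes were the 10 members, the 3 genes of each list with the lowest p among numbers and a mean normalized count of 50 or more, and the 3 nearest patterns of each member. Mycn and Mycl were named outside this rule. Floors of 3 counts cover counting error only. Sequences of miRNAs and promoters are from RefSeq (GRCm38.p6). Promoters were not matched for Ier2 and Myc, and that of Jund lies upstream of its GENCODE start.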

Additional observations from a re-analysis of the deposited data

Results flagged for a closer look

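Klf6 in miR-183-5p-EVs 2 was far from the other libraries of its number, at 900.1 normalized counts against 656 to 690.4 in the other 3. Such a gap is met by chance in about 1 in 20 groups, and each member has 3 such groups, 1 for each number.

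In 5 members all 3 miR-EV libraries of one number lay on one side of their ctrl-EV library and all 3 of another number on the other side. How often this occurs over all tested genes was not counted, so it does not set the members apart. The difference between the numbers was not tested in any of these, and each set of 3 shares 1 control library. The mean difference from ctrl-EVs in number 1 minus that in number 3 was 0.56 on the log2 scale for Fos (0.31 and −0.25) and −1.04 for Klf6 (−0.69 and 0.35). That in number 1 minus that in number 2 was −0.63 for Jun, −0.71 for Atf3, −0.42 for Ier2 and −0.87 for Klf6. That in number 2 minus that in number 3 was 0.50 for Jun and 0.29 for Ier2.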

How the results depend on the processing

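The count of called members was 0 in all 4 treatment comparisons under every alternative, whereas the count of called genes moved. In some alternatives DESeq2 gave a member no adjusted p, so that it could not be called there. This held for Fosb and Klf2 for miR-183-5p-EVs with the block, and for Jund in an alternative of that comparison. It also held for Fos, Fosb, Jund, Ier2 and Klf2 in an alternative for all miR-EVs. For miR-222-3p-EVs it held for all tested members but Atf3 in some alternatives. For miR-142-5p-EVs (1 gene) it was 8 with the replicate block, 11 and 8 with the block and a GC or length correction, and 0 with the block in edgeR, in edgeR without it, in limma, at a mean of at least 50 and in the compared groups only. For miR-183-5p-EVs (0) the block gave 58, and 63 and 54 with the corrections, for miR-222-3p-EVs (0) 5, 17 and 13, and for all miR-EVs (0) 84, 111 and 58. Without the libraries of number 2, an alternative chosen after seeing the data, 2, 4, 3 and 6 genes were called, and 27, 13, 21 and 81 with the block, again with 0 members. Leaving out 1 library gave 0 to 1 genes for miR-142-5p-EVs, as for miR-183-5p-EVs, and 0 to 2 for all miR-EVs. For number 1 against number 3 it gave 1898 to 3763 genes (3258 in all libraries) and 2 to 7 members (6). For any difference among numbers it gave 8 to 9 members, Jund being lost without 8 of the libraries and with a GC correction (DESeq2 adjusted p = 0.141).

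Directions turned in many uncalled values. Fos for miR-142-5p-EVs was −0.088 without number 2 and −0.065 with the block in addition. In limma on TPM, Jund in number 2 was −0.085 and Junb in number 1 against 3 was −0.053. Over single libraries left out, Fos ranged from −0.27 to 0.49 for miR-142-5p-EVs and −0.16 to 0.60 for miR-222-3p-EVs, Fosb from −0.63 to 2.20 for miR-183-5p-EVs and −0.061 to 2.15 for all miR-EVs, Klf2 from −0.96 to 0.18 for all miR-EVs, and Junb from −0.094 to 0.17 between numbers 1 and 3. The other 30 member values under treatment were called in 0 of 713 alternatives and changed sign in 72. The 713 include those in which DESeq2 gave no adjusted p. The treatment fits with 1 library left out held no block, so the groups then held the title numbers unequally. The part of this in the changes was not tested, nor was any other cause.

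The TPM scale moved the median of all genes in number 2 against 1 and 3 to −0.17 (0.01 in DESeq2) and the called genes to 2822 higher and 6206 lower (4457 and 4470), and in number 1 against 3 to 1064 and 1786 (1799 and 1459). On it Fosb, Jun, Junb, Fos, Klf6, Ier2 and Klf2 kept their direction and call in number 2, with Fosb at 1.51 (2.80 in DESeq2), Junb at 0.38 (0.61) and Ier2 at −0.56 (−0.37). In number 1 against 3, Fosb lost its call in edgeR, in limma (0.26) and without number 2, Jun in edgeR, and Jund with a GC correction (−0.28) and without number 2. Fos gained a call without the length offset, and Klf6 without it, with a GC correction and without number 2 (DESeq2 adjusted p of 0.0059 to 0.0459). With 13.5 to 45.4 normalized counts outside number 2, Fosb is the tested member most limited by depth there, followed by Klf2.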
